A study of Mus musculus with 9 samples.

Results

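The genes described here encode the machinery that brings proteins into mitochondria. They were picked from the count table by name: symbols that begin with Timm or Tomm followed by a digit, plus Samm50, Mtx1, Mtx2, Pam16, Dnajc15, Pmpca, Pmpcb, Chchd4 and Gfer, each with at least 90 counts summed over the 9 libraries. Of 29915 rows, 31 matched by name and 29 reached the minimum. Timm8a2, with 6 counts in all, and Tomm20l, with 0, did not. The RNA came from embryonic fibroblasts (MEFs) of the mouse, taken from 1 representative wild-type (WT) line and 1 representative line whose genotype the labels give only as mutator. Strain, embryonic age and allele are not given in the labels. Mice called mutator in the field carry a mitochondrial DNA polymerase, Polg, without proofreading. Cells of either line were seeded in 6-well plates, received no treatment and were harvested after 48 h, and 4 WT and 5 mutator wells were compared as technical replicates. Each p-value therefore measures the spread between wells of 1 line per genotype, and genotype cannot be told apart from any other difference between the lines.

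Nearly all mitochondrial proteins are encoded in the nucleus, made in the cytosol and imported. Precursors pass the outer membrane through the TOM complex and are then sorted. Beta-barrel proteins go to the SAM complex, proteins with a cleavable presequence to the TIM23 channel and its ATP-driven motor, carrier proteins to the TIM22 translocase by way of small TIM chaperones, and small cysteine-rich proteins of the intermembrane space to a disulfide relay. The TIM23 and TIM22 routes need the membrane potential that the respiratory chain maintains.

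The libraries held 26341230 to 36238653 counts in WT and 32045662 to 49511365 in mutator, and the 29 genes had 302 to 10508 counts in any library. Levels are given as CPM, the usual unit of counts relative to library size, with library sizes scaled by TMM. Only the levels of cell type markers use the library totals without TMM. Of 9 fibroblast markers, 8 were above 1 CPM in every library, among them Col1a1, Vim and Fn1, whereas Thy1 was at 0 in all WT libraries and at most 0.159 in mutator. Their summed level was 8761 to 9205 in WT and 16314 to 17419 in mutator, and its part in the results was not tested. Col1a1, Col1a2, Col3a1, Vim, Pdgfrb and Fn1 were higher in every mutator library. Pdgfra was lower, at 6.86 to 7.63 CPM in WT and 4.87 to 5.61 CPM in mutator. S100a4 overlapped, at 540 to 562 CPM in WT and 539 to 606 CPM in mutator. Markers of other cell types were low: 8 of the 11 found stayed under 1 CPM in every library. The sum of the 11 was 5.92 to 7.18 in WT and 8.71 to 9.86 in mutator. Against that sum, Cdh1 was at 1.67 to 1.78 CPM in WT and at 0.0808 to 0.278 CPM in mutator. A gene is called higher or lower in mutator when its adjusted p in edgeR's quasi-likelihood test, fitted over 13345 genes, is under 0.05.

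More import genes were lower than higher in mutator, by modest amounts. Of the 29, 16 fell, 7 rose and 6 did not pass the test. Among all tested genes 39.2% were lower and 40.7% were higher. The median log2 fold change (mutator over WT) of the import genes was -0.12, against 0.01 for all genes, and the median size of the change was 0.24 against 0.35. None changed by 2-fold or more, where 2381 of the 13345 tested genes did, and the largest change was 1.87-fold. The tested genes include genes with far lower counts than the import genes, and sizes of change were not compared at matched counts. Past the threshold with a log2 change of at least 0.5 in size, 4 genes were lower (Tomm6, Mtx1, Tomm5 and Timm22) and 1 was higher (Tomm34), where the shares over all genes were 16.4% and 20.7%. The libraries of WT and mutator did not overlap for 21 of the 29, and for 71.9% of all genes. Summed over the 29 genes, RNA was 2011, 2035, 1994 and 2055 CPM in the WT libraries and 1768, 1761, 1774, 1792 and 1784 CPM in the mutator libraries, so the mutator sum was 87.7% of the WT sum. The TOM genes made up the largest part of that difference, with a WT sum of 858 ± 14.6 CPM (SD, n = 4) and a mutator sum of 702 ± 4.80 CPM (SD, n = 5). They also held the largest part of the WT sum, and their mutator sum was 81.7% of WT. Across roles this share ran from 68.9% for TIM22, a single gene, to 97.5% for the presequence peptidase. In these bulk RNA samples fewer cells of a type and less RNA per cell cannot be told apart.

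**Figure D1:**
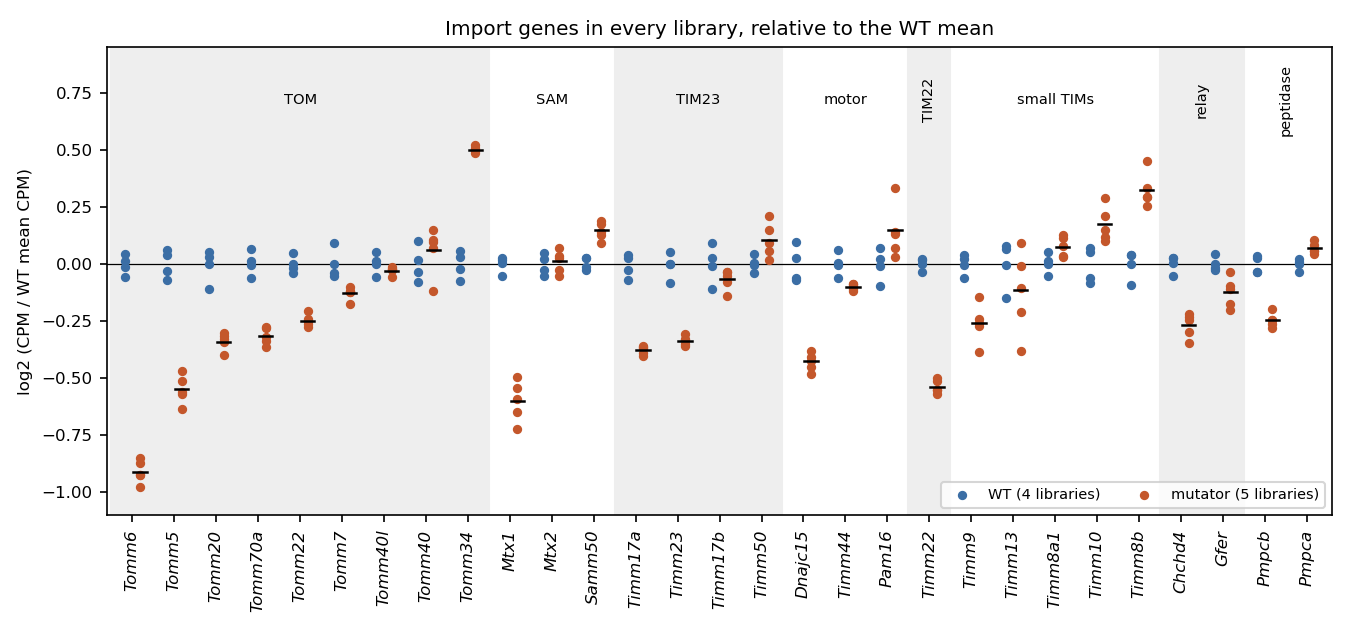
Log2 of CPM over the WT mean (vertical axis) for each of the 29 import genes (horizontal axis, grouped by role), with 4 WT libraries in blue, 5 mutator libraries in orange and a black bar at the mutator mean. Tomm6, with a log2 fold change of -0.90, is the lowest and Tomm34, at 0.50, the highest, and most of the TOM genes lie below their WT libraries.

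**Figure D2:**
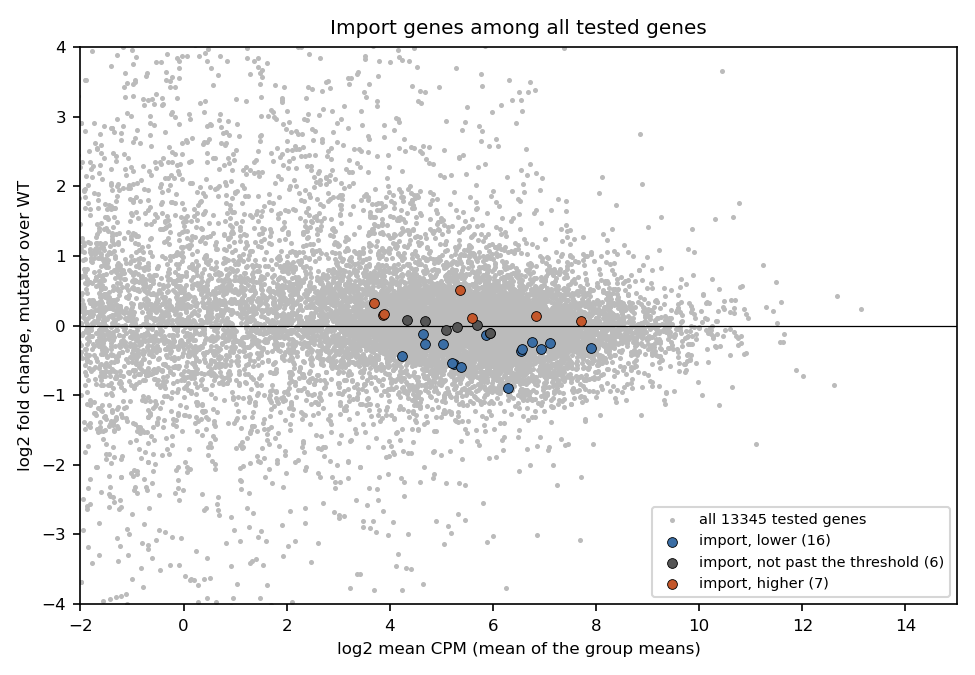
Log2 fold change of mutator over WT (vertical axis) against log2 mean CPM (horizontal axis) for the 13345 tested genes in grey, of which 485 lie outside the area plotted, and for the 29 import genes, of which 16 are lower (blue), 7 higher (orange) and 6 not past the threshold (dark grey). The import genes lie well inside the cloud of all genes.

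Chromosomes matter for reading these values, because the lines differ by chromosome. The median log2 fold change of all tested genes was lowest on chromosome 3, at -0.73. Chromosomes 4, 17, 14 and 10 followed with medians of -0.36, -0.26, -0.24 and -0.21, and chromosomes 2 and 9 had the highest medians among those with import genes, 0.31 and 0.40. The 29 genes lie on 17 chromosomes, so each is also given relative to the median of its own chromosome. On that scale 17 were lower and 6 higher, where 39.0% and 38.9% of all genes were. After a trend of fold change on GC content and transcript length was removed instead, 16 were lower and 8 higher, where 38.4% and 40.8% of all genes were. Between the uncorrected and the chromosome-relative scale, 21 of the 29 genes had the same call.

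**Figure D3:**
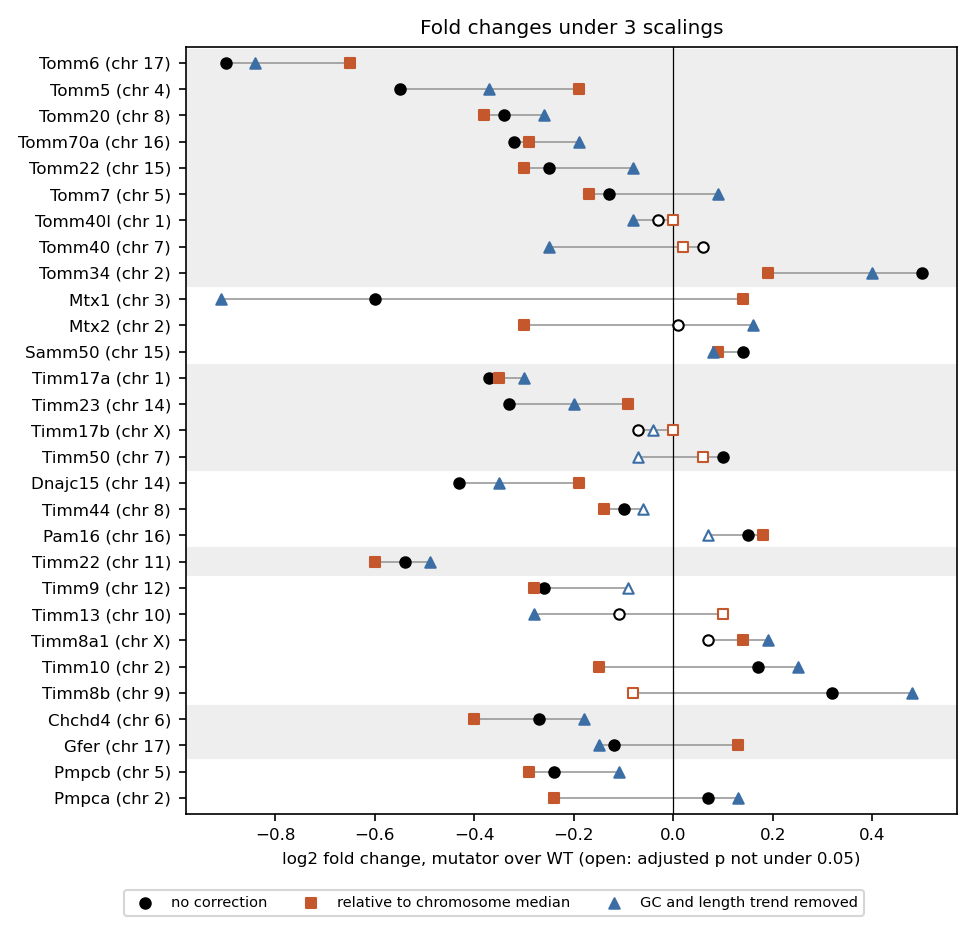
Log2 fold change of each import gene (horizontal axis) with no correction (black), relative to the median of its chromosome (orange) and with the GC and length trend removed (blue); open symbols did not pass the threshold. Tomm6, Timm22 and Timm17a stay on the left under all 3 scalings. Mtx1 moves from -0.60 to 0.14 relative to chromosome 3, and to -0.91 with the GC and length trend removed.

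Without correction, the receptors and 3 small subunits of the TOM complex fell, and the genes of the pore did not pass. Of 9 genes, 6 fell, Tomm34 rose, and Tomm40 and Tomm40l did not pass. For this role and each role below, the shares over all tested genes were 39.2% lower and 40.7% higher. The median log2 fold change was -0.25. The small subunits Tomm5, Tomm6 and Tomm7 are short membrane proteins that stabilise the complex around the pore. Tomm6 (GRCm38 chr17:47686645-47688386) was at 101, 98.0, 105 and 103 CPM in the WT libraries and at 51.9, 53.8, 53.8, 55.7 and 56.6 CPM in the mutator libraries. The groups lay far apart, at -0.90 ± 0.031 on the log2 scale (mutator over WT ± SE, adjusted p = 9.61e-15), and the change was -0.65 relative to chromosome 17. Tomm6 shares 780 bases of its span with Frs3 and 95 bases with Usp49 in the annotation, so its reads may be incomplete or mixed if strand was not used in counting. Frs3 had means of 1.77 and 2.41 CPM in WT and mutator, and Usp49 had 42.8 and 29.1 CPM.

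Tomm5 (chr4:45105209-45108113) was at 46.4, 44.2, 43.0 and 47.2 CPM in the WT wells and at 31.7, 30.5, 29.1, 30.6 and 32.7 CPM in mutator, a log2 fold change of -0.55 ± 0.038 (adjusted p = 2.75e-10). Every mutator library was below every WT library, and the change was -0.19 relative to chromosome 4 and -0.01, not past the threshold, with the GC and length trend removed as well. Tomm7 fell less, from 60.6 ± 2.81 to 55.4 ± 1.11 CPM, a log2 fold change of -0.13, and it turned to 0.09 and past the threshold with the GC and length trend removed (adjusted p = 0.0183). Among the receptors, Tomm20, which binds presequences, was at 137, 140, 127 and 142 CPM in the WT wells and at 111, 104, 110, 108 and 109 CPM in mutator (log2 fold change -0.34 ± 0.031, adjusted p = 1.17e-08). Tomm70a, which receives carrier precursors handed over by cytosolic chaperones, was at 267, 277, 254 and 264 CPM in the WT wells and at 218, 212, 219, 206 and 210 CPM in mutator (-0.32 ± 0.026, adjusted p = 3.28e-09). Tomm22, the central receptor, was at 150, 155, 148 and 146 CPM in the WT wells and at 127, 124, 125, 130 and 126 CPM in mutator (-0.25 ± 0.025, adjusted p = 3.87e-08). No mutator library reached a WT library for any of the 3. These genes lie on chromosomes 8, 16 and 15, whose medians were -0.02 to 0.05, and all 3 were lower under each scaling. With the GC and length trend removed the changes were smaller, -0.26 for Tomm20, -0.19 for Tomm70a and -0.08 for Tomm22.

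The pore gene Tomm40 ranged from 23.7 to 26.8 CPM in WT and from 23.0 to 27.7 CPM in mutator, and its paralogue Tomm40l from 38.3 to 41.4 CPM and from 38.4 to 39.5 CPM. The groups overlapped for both genes (log2 fold changes 0.06 and -0.03, adjusted p = 0.278 and 0.411). With the GC and length trend removed both were lower and past the threshold (-0.25 and -0.08). Tomm34 encodes a cytosolic cochaperone that binds Hsp70 and Hsp90 and was named for a part in import. It was at 33.5, 32.3, 35.4 and 34.7 CPM in the WT wells and at 48.1, 47.6, 48.3, 48.8 and 47.9 CPM in mutator. The rise held in each library, with a log2 fold change of 0.50 ± 0.032 (adjusted p = 6.50e-11), and it was 0.19 relative to chromosome 2, which carries the gene.

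The sequences before the start sites of TOM genes are shown because Tomm6 and the receptors fell together while Tomm34 rose. Each is the 250 bases before the annotated start (RefSeq, GRCm38.p6), 5′ to 3′ on the gene's strand. Capitals mark matches, on either strand, to the letters CCGGAAG, a core that ETS factors such as GABP recognise, or to the run GCGCA, any base, GCGC, a core recognised by NRF1, the nuclear respiratory factor. The windows are chr17:47688387-47688636 for Tomm6, chr8:126945922-126946171 for Tomm20 and chr2:164071170-164071419 for Tomm34 (all minus strand), and chr15:79670618-79670867 for Tomm22 and chr16:57121464-57121713 for Tomm70a (plus strand). Tomm34 has a second annotated start, not shown.
Tomm6: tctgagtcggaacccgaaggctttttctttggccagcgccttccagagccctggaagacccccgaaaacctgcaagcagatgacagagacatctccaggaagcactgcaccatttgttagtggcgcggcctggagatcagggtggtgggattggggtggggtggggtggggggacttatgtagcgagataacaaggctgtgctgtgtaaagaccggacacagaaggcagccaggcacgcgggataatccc
Tomm20: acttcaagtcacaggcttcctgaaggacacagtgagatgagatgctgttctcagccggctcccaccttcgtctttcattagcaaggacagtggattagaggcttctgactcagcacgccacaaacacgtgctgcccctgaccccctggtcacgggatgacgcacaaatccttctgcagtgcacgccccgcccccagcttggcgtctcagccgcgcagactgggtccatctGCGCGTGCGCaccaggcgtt
Tomm22: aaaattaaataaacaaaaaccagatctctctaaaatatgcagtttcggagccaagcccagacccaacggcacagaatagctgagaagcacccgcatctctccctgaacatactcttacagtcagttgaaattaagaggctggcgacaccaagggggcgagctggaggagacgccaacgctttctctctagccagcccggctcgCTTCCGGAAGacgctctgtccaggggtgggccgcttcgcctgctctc
Tomm70a: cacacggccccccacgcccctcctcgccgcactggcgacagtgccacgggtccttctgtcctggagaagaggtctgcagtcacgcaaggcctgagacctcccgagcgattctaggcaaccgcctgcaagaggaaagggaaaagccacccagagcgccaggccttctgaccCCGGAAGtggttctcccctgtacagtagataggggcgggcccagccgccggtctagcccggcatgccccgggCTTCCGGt
Tomm34: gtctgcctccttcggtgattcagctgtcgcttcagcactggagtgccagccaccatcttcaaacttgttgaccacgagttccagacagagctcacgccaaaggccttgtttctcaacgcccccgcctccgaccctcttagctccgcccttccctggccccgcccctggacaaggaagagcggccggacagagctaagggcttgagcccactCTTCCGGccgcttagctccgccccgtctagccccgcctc

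The ETS letters occur in Tomm22, where a match on either strand overlaps, in Tomm70a and in Tomm34, and so in genes that fell and in a gene that rose. The NRF1 letters occur in Tomm20, and Tomm6 has neither. Over the import genes, 27 of 29 had a promoter entry, and 10 of them (37.0%) held the ETS letters in a window, against 15.7% of 8791 tested genes with an entry. Of those 10, 5 fell and 4 rose. The NRF1 letters occurred in 3 import genes (11.1%), Chchd4, Pam16 and Tomm20, against 9.35% of the tested genes. The cyclic AMP response element TGACGTCA was in 0 of the 27 import genes with an entry and in 3.09% of the tested genes. The letters TGATGNAA, part of the element bound by ATF4 with C/EBP factors, were in 0 and 2.33%. The YY1 letters AANATGGCG were in 0 and 2.48%. These matches describe the letters only.

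In the SAM complex, which inserts beta-barrel proteins into the outer membrane, 1 gene fell, 1 rose and 1 did not pass. Mtx1 (chr3:89209081-89213907), a metaxin of the complex, was at 48.5, 50.5, 50.9 and 51.2 CPM in the WT wells and at 32.1, 33.4, 30.5, 35.7 and 34.5 CPM in mutator. It fell 1.51-fold with no overlap (log2 fold change -0.60 ± 0.041, adjusted p = 1.89e-10). Relative to chromosome 3, whose median was -0.73, it was at 0.14 and past the threshold in the other direction (adjusted p = 0.00531). With the GC and length trend removed instead, Mtx1 was at -0.91 (adjusted p = 3.94e-13). It was still called lower with the chromosome median and the trend both removed. Samm50, the beta-barrel core of the complex, was at 107, 108, 111 and 111 CPM in the WT wells and at 116, 120, 119, 124 and 123 CPM in mutator. It rose in every mutator library, by 0.14 ± 0.026 on the log2 scale (adjusted p = 6.87e-05). Mtx2 did not pass (log2 fold change 0.01), with 49.6 to 53.2 CPM in WT and 49.5 to 53.9 CPM in mutator. Relative to chromosome 2 it was at -0.30, and with the GC and length trend removed at 0.16, both past the threshold.

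In the TIM23 translocase of the inner membrane the channel subunits Timm23 and Timm17a fell and the paralogue Timm17b did not pass. Timm17a (chr1:135301535-135313737) was at 101, 109, 104 and 108 CPM in the WT wells and at 82.4, 82.7, 80.2, 80.9 and 82.0 CPM in mutator. The mutator libraries lay within a narrow band below all WT libraries (log2 fold change -0.37 ± 0.027, adjusted p = 4.91e-10). Timm23 was at 106, 106, 100 and 110 CPM in the WT wells and at 83.1, 84.4, 85.6, 84.2 and 82.6 CPM in mutator (-0.33 ± 0.028, adjusted p = 4.42e-09). Its groups did not overlap either. Relative to chromosome 14 the change was -0.09, and the call was lost with the GC and length trend removed as well. Timm17b, on the X chromosome, had 32.3 to 37.2 CPM in WT and 31.7 to 34.1 CPM in mutator (-0.07, adjusted p = 0.120). Timm50, the receptor that takes presequences from the TOM side, rose from 46.6 ± 1.12 to 50.1 ± 2.66 CPM with overlapping libraries (log2 fold change 0.10). That call did not hold relative to chromosome 7 (0.06) or with the GC and length trend removed (-0.07), nor without WT replicate 2 or 3.

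The motor pulls presequence proteins into the matrix with mitochondrial Hsp70, the product of Hspa9, which is no member of the named set. Dnajc15 encodes a J-domain protein of the motor. It was at 23.0, 21.9, 20.6 and 20.5 CPM in the WT wells and at 16.2, 16.5, 15.7, 16.0 and 15.4 CPM in mutator, with no overlap, and fell by 0.43 ± 0.045 on the log2 scale (adjusted p = 7.17e-08). Relative to chromosome 14 the change was -0.19. Timm44, which tethers Hsp70 to the channel, fell from 63.8 ± 2.19 to 59.5 ± 0.591 CPM (log2 fold change -0.10), and did not pass with the GC and length trend removed (-0.06) or under upper quartile scaling. Pam16, which holds the J-domain protein at the channel, was at 14.5, 12.9, 14.0 and 13.7 CPM in the WT wells and at 15.1, 14.1, 14.5, 17.4 and 15.2 CPM in mutator. Mutator replicate 4 stood above the others, and the groups overlapped. The rise of 0.15 ± 0.062 (adjusted p = 0.0326) was lost without mutator replicate 4, without WT replicate 2, 3 or 4, with the GC and length trend removed (0.07), and in DESeq2. Pam16 lies wholly within the annotated span of Glis2, which had means of 111 and 132 CPM in WT and mutator.

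Timm22 (chr11:76406925-76416313), the channel for carrier proteins, was at 44.2, 42.6, 43.7 and 44.4 CPM in the WT wells and at 29.8, 30.9, 30.6, 29.4 and 29.8 CPM in mutator. The spread within either line was under 2 CPM, and every mutator library was lower (log2 fold change -0.54 ± 0.031, adjusted p = 1.43e-11). Its chromosome had a median of 0.07, and relative to it the change was -0.60. The small TIM chaperones, which escort carriers and beta-barrel proteins across the intermembrane space as hexamers, moved both ways: of 5 genes, 2 rose, 1 fell and 2 did not pass. Timm8b was at 10.8, 11.8, 11.5 and 11.8 CPM in the WT wells and at 14.1, 13.7, 14.5, 14.1 and 15.7 CPM in mutator, higher in each library (0.32 ± 0.054, adjusted p = 2.30e-05). Relative to chromosome 9 it was at -0.08 and did not pass. Timm9 was at 28.4, 28.8, 27.9 and 26.8 CPM in the WT wells and at 23.4, 21.4, 25.3, 23.2 and 23.7 CPM in mutator (-0.26 ± 0.045, adjusted p = 3.61e-05). The groups did not overlap, and the change was -0.09 and did not pass with the GC and length trend removed. Its hexamer partner Timm10 rose from 14.0 ± 0.779 to 15.8 ± 0.865 CPM (0.17, adjusted p = 0.00744), and turned to -0.15 relative to chromosome 2 (adjusted p = 0.0191).

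Timm13, the partner of Timm8a1, had the widest spread of the 29 genes between wells of either line. It was at 67.3, 58.0, 67.8 and 64.0 CPM in the WT wells and at 49.3, 55.5, 59.8, 68.5 and 63.8 CPM in mutator. The coefficient of variation was 12.4% in mutator and 7.05% in WT, against medians of 2.95% and 3.29% over the import genes. The libraries overlapped and the log2 fold change of -0.11 did not pass (adjusted p = 0.151), although Timm13 passed without mutator replicate 4 (-0.17) and with the GC and length trend removed (-0.28, adjusted p = 0.00187). Relative to chromosome 10 it was at 0.10 and did not pass. Timm8a1 had 18.8 to 20.2 CPM in WT and 19.9 to 21.3 CPM in mutator and did not pass (0.07, adjusted p = 0.108), and passed at 0.14 relative to the X chromosome, at 0.19 with the GC and length trend removed, at 0.12 under upper quartile scaling and at 0.10 with a filter of 10 CPM.

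Both genes of the disulfide relay fell. Chchd4, the oxidoreductase that folds incoming cysteine-rich proteins, was at 36.0, 36.5, 34.6 and 36.5 CPM in the WT wells and at 29.2, 28.2, 30.3, 30.8 and 30.6 CPM in mutator (log2 fold change -0.27 ± 0.036, adjusted p = 1.65e-06). The groups were apart, and relative to chromosome 6 the change was -0.40. Gfer, the sulfhydryl oxidase that reoxidises it, was at 26.0, 25.5, 25.7 and 26.8 CPM in the WT wells and at 24.3, 22.6, 23.0, 25.4 and 24.1 CPM in mutator (-0.12 ± 0.041, adjusted p = 0.0113). The gap between the groups was narrow, and relative to chromosome 17 Gfer turned to 0.13 (adjusted p = 0.00634). Its call was lost under upper quartile scaling (-0.08, adjusted p = 0.0901) and at a threshold of 0.01.

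The presequence peptidase cuts off the targeting signal in the matrix, and its subunits moved apart. Pmpcb, the catalytic subunit, was at 114, 119, 114 and 120 CPM in the WT wells and at 102, 98.6, 98.7, 97.6 and 96.2 CPM in mutator (log2 fold change -0.24 ± 0.027, adjusted p = 1.62e-07). Each mutator library was below each WT library. Pmpca, the subunit that recognises presequences, was at 198, 204, 203 and 206 CPM in the WT wells and at 218, 215, 211, 211 and 209 CPM in mutator, a small rise without overlap (0.07 ± 0.022, adjusted p = 0.00707). Relative to chromosome 2 it was at -0.24, and Pmpcb was at -0.29 relative to chromosome 5. Pmpca shares 873 bases of its span with Inpp5e, which had means of 26.3 and 39.5 CPM in WT and mutator. Reads there may be missing or mixed if strand was not used in counting.

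Levels can be compared between genes only per length of transcript. Per kb of the principal annotated transcript, the highest level in WT was 136 ± 4.15 CPM for Tomm6, followed by 95.5 ± 2.64 for Tomm22 and 90.2 ± 3.51 for Timm23, and the lowest was 3.47 ± 0.194 for Dnajc15. Tomm22 and Timm23 differed by less than the sum of their SDs. In mutator the highest was Tomm22, at 80.4 ± 1.39 CPM per kb, and Tomm6 at 72.6 ± 2.48 lay beside Timm23 at 71.6 ± 0.995. The pore gene Tomm40 was at 15.2 ± 0.809 CPM per kb in WT and Tomm40l at 8.47 ± 0.269. These levels depend on which transcript the cells use.

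**Figure D4:**
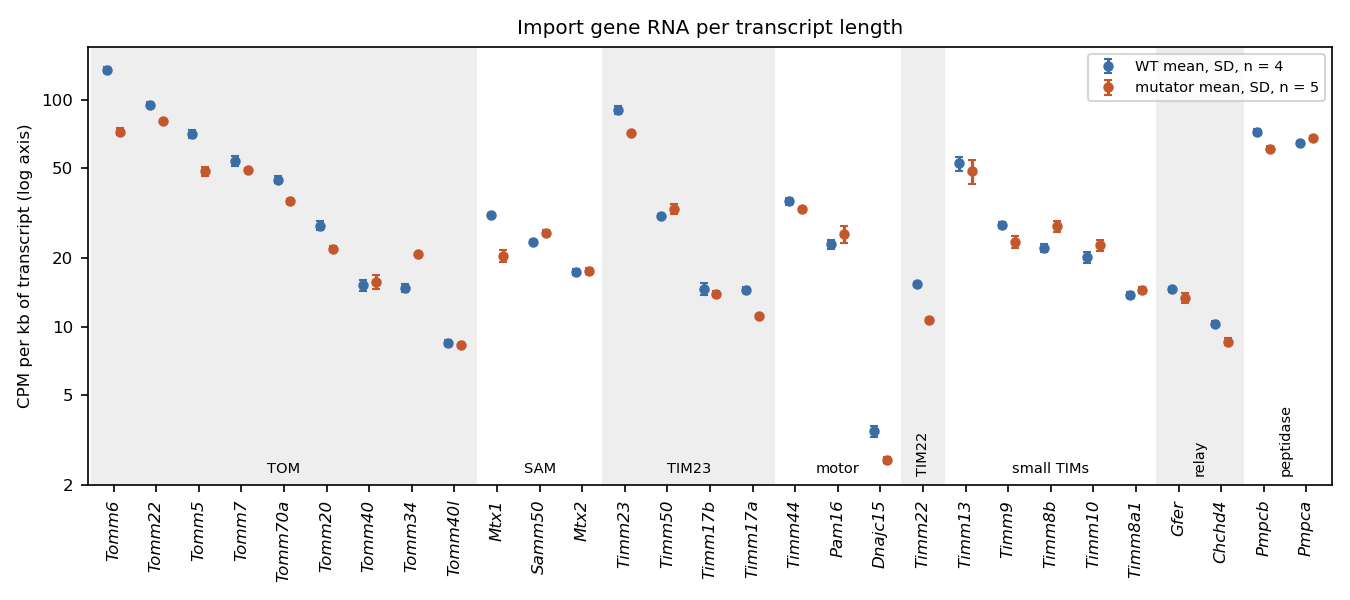
Mean CPM per kb of principal transcript (vertical log axis) with SD for 4 WT (blue) and 5 mutator (orange) libraries, for the 29 import genes grouped by role. Tomm6 is at 136 in WT and 72.6 in mutator, and Dnajc15 is the lowest gene in either line.

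Ratios of counts between paralogues or partners were compared within libraries, which removes library scaling. Of 8 pairs, 7 differed without overlap (exact two-sided permutation test, p = 0.0159 each, the smallest that 4 against 5 libraries allow, adjusted p = 0.0181 over the 8 pairs). How often ratios of other gene pairs separate the lines was not tested. Taken singly, 71.9% of all tested genes did not overlap between the lines, so the count is no trait of these pairs. The Timm17a to Timm17b ratio was 1.54, 1.75, 1.56 and 1.54 in WT and 1.38, 1.28, 1.28, 1.27 and 1.27 in mutator on the log2 scale. The mean went from 3.03 to 2.45 Timm17a counts per Timm17b count. The Timm9 to Timm10 ratio fell by 0.43, from 1.00 ± 0.055 to 0.57 ± 0.10, and the Timm8a1 to Timm8b ratio by 0.25, from 0.77 ± 0.079 to 0.51 ± 0.078. The Mtx1 to Mtx2 ratio went from -0.03 ± 0.050 to -0.64 ± 0.14, and the Chchd4 to Gfer ratio from 0.47 ± 0.040 to 0.32 ± 0.054. The Pmpca to Pmpcb ratio rose from 0.80 ± 0.026 to 1.11 ± 0.015. The ratio of Dnajc15 to Dnajc19, which encodes the other J-domain protein of the motor, rose from -0.53 ± 0.15 to 0.01 ± 0.083. The Tomm40 to Tomm40l ratio was -0.67 ± 0.074 in WT and -0.59 ± 0.11 in mutator and did not differ past the threshold (p = 0.238 in the same exact test). It passed without mutator replicate 1, with a difference of 0.13 (adjusted p = 0.0286, exact permutation test).

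All 8 pairs join genes of different chromosomes. After the medians of the chromosomes were taken off, the mutator minus WT difference was -0.34 for Timm17a to Timm17b and -0.54 for Chchd4 to Gfer. It reversed for Mtx1 to Mtx2 (0.44) and for Timm8a1 to Timm8b (0.21), with adjusted p = 0.0317 for each of these 4 pairs in the exact permutation test. It was -0.14 for Timm9 to Timm10, 0.04 for Pmpca to Pmpcb, 0.05 for Dnajc15 to Dnajc19 and 0.02 for Tomm40 to Tomm40l, none past the threshold. This comparison was added after the data were seen. Ratios were not compared with the GC and length trend removed. As single genes on that scale, Chchd4 (-0.18) and Gfer (-0.15) lay close together. Tomm40 (-0.25) and Tomm40l (-0.08) lay further apart, as did Timm17a (-0.30) and Timm17b (-0.04).

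**Figure D5:**
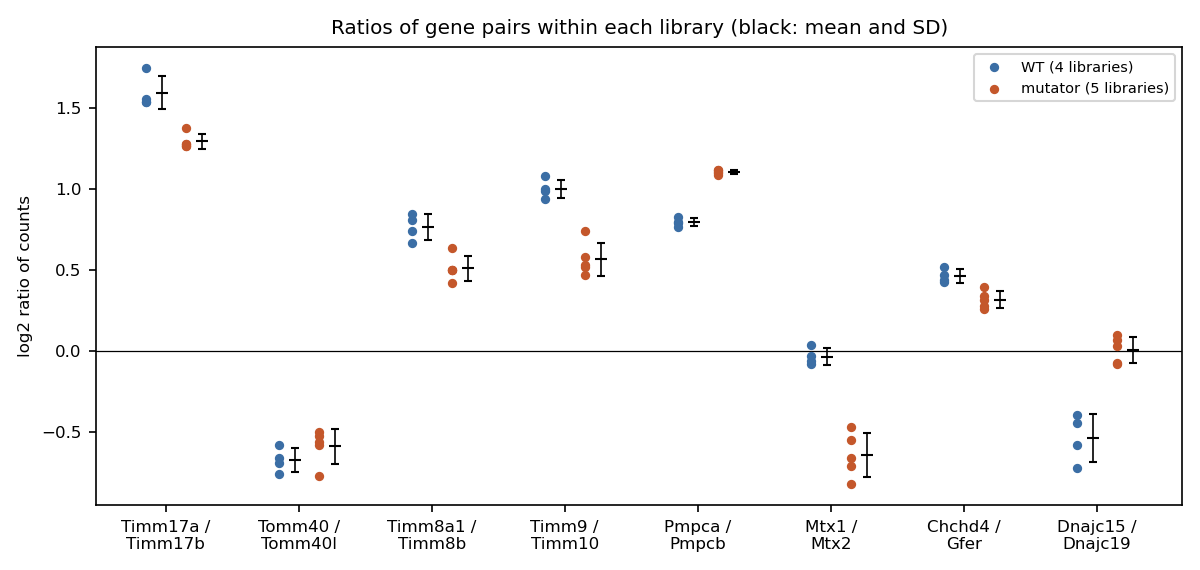
Log2 ratio of counts (vertical axis) for 8 pairs of genes (horizontal axis) in 4 WT (blue) and 5 mutator (orange) libraries, with the mean and SD of each group in black. Of the pairs, 7 separate the groups and Tomm40 to Tomm40l does not. How often other gene pairs separate the groups was not tested.

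Genes that work with the import machinery but lie outside the named set moved both ways as well. Of 54 such genes listed, 50 were tested, 25 fell, 17 rose and 8 did not pass, with a median log2 fold change of -0.12, where 39.2% of all tested genes fell, 40.7% rose and the median was 0.01. Among 9 further genes of the channels, the motor and the SAM complex, 6 rose and 3 fell. Dnajc19 on chromosome 3 fell from 31.1 ± 2.62 to 15.9 ± 0.550 CPM (log2 fold change -0.97, and -0.24 relative to its chromosome). Romo1, a small inner-membrane protein tied to the TIM23 channel, rose from 14.1 ± 0.676 to 26.0 ± 3.68 CPM (0.89). Hspa9 itself went from 935 ± 25.3 to 1012 ± 20.1 CPM (0.11), and was at 0.00 relative to its chromosome. Of 5 genes of presequence removal and breakdown, 3 fell and 1 rose. Pitrm1, which degrades cleaved presequences, rose 1.36-fold, from 186 ± 3.86 to 253 ± 9.47 CPM, and Immp1l, an inner-membrane peptidase subunit, fell 1.16-fold (-0.21), was at -0.53 relative to chromosome 2 and did not pass with the GC and length trend removed (0.08).

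Of 6 genes of matrix folding and membrane insertion, 4 fell and 2 rose, among them the chaperonin subunit Hspe1, which fell from 223 ± 8.80 to 172 ± 4.48 CPM (log2 fold change -0.38), and the mitochondrial Hsp90 gene Trap1, which rose from 125 ± 1.51 to 174 ± 0.996 CPM (0.47). Of 5 genes of the cristae contact site, 3 rose, among them Chchd6 (0.38), and Apoo fell (-0.56). Of 11 genes of the disulfide relay and its substrates, 5 fell and 3 rose. Chchd7, a small protein with the twin cysteine motif, fell by 1.26 on the log2 scale, from 14.5 ± 0.713 to 6.02 ± 0.301 CPM, and the complex I subunit Ndufs5 fell 1.65-fold. Both lie on chromosome 4 and stayed lower relative to it (-0.90 and -0.37). Of 14 genes of cytosolic targeting and precursor quality control, 9 fell and 2 rose. For each of these lists, the shares over all tested genes were 39.2% lower and 40.7% higher. Pink1, the kinase that is stabilised on mitochondria with failed import, fell from 24.5 ± 1.03 to 13.1 ± 0.385 CPM (-0.90, and -0.55 relative to chromosome 4). The cytosolic Hsp90 gene Hsp90ab1, whose product delivers precursors to Tomm70a, fell from 4578 ± 40.9 to 2941 ± 48.3 CPM (-0.64).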

How the data were processed

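The deposited values are raw gene counts, not normalized by the authors, from poly(A)-selected, strand-specific libraries. STAR 2.4.2a, HTSeq and the build mm10, the same assembly as GRCm38, are named in the submitters' processing notes. Which annotation and strand option were used, and how multiply mapped reads were treated, is not given in the sources used here. In the annotation 12 of the 29 import genes overlap another gene, 7 of them a protein-coding gene, and reads there, or from near-identical copies, may be missing, split or mixed. Sample descriptions linked columns to samples, and 5 other columns were left aside. No row lacked a gene name. Replicates of a line differed by more than sampling noise in all 16 pairs (chi-square over degrees of freedom, 2.49 to 12.4), and each is counted as a sample.

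Genes were kept by filterByExpr, scaled by TMM and tested in edgeR 4.0.16 (R 4.3.3; quasi-likelihood F test, group the only term) over 13345 genes with Benjamini-Hochberg adjustment. Standard errors are log2 fold changes over the root of F. Alternatives were DESeq2 1.42.0, other scalings, filters and thresholds, each library left out, a replicate block, and offsets that remove chromosome medians or a robust spline trend (5 degrees of freedom each for GC content and log2 transcript length, centred on the median of all genes, 12460 genes with values). Chromosomes, positions and promoter sequences come from RefSeq (GRCm38.p6), transcript lengths and GC content from GENCODE M21. Pair ratios had 0.5 added to each count. The fit was tested on simulated data with few changed genes, balanced in direction, the same dispersion for all genes and no chromosome or GC effects. That setting differs from these data, so the simulation does not show how the fit performs on them. Values in all libraries are given for the 2 largest called changes of each role and for any called log2 change of at least 0.5, and for Tomm20, Tomm22, Tomm70a and Timm13, chosen after their values were seen. The 2 largest called changes of each list of partner genes are named, and Hspa9 beside them. The genes, lists, motifs and tests were chosen with earlier results of these data known.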

Additional observations from a re-analysis of the deposited data

Results flagged for a closer look

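Each of 74 groups of values (29 genes and 8 ratios in either line) was checked for a library far from the others, and 4 were. Chance alone gives about 1 in 20 groups. Tomm40l in mutator replicate 3 was at 38.4 CPM, below the other mutator libraries at 39.2 to 39.5 CPM. The log2 ratio of Timm17a to Timm17b was 1.75 in WT replicate 2, where the other WT libraries had 1.54 to 1.56. The same ratio was 1.38 in mutator replicate 1, where the others had 1.27 to 1.28. The log2 ratio of Tomm40 to Tomm40l was -0.77 in mutator replicate 1 and -0.58 to -0.50 in the other mutator libraries.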

How the results depend on the processing

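Of the 29 import genes, 11 had the same call under all 20 alternatives to the fit: Chchd4, Dnajc15, Pmpcb, Timm17a, Timm22, Tomm20, Tomm22, Tomm6 and Tomm70a were lower, and Samm50 and Tomm34 higher. The share of all tested genes that kept their call was not computed, so the count is no trait of the import genes. With 1 library left out the number past the threshold was 21 to 24, with 16 or 17 lower and 5 to 8 higher. Pam16 and Timm50 were lost without WT replicate 2 or 3 and with mutator replicates 4 and 5 both left out (5 higher, 17 lower). Pam16 was also lost without WT replicate 4 or mutator replicate 4. Upper quartile scaling lost Gfer and Timm44 and gained Timm8a1 (8 higher, 14 lower), and a threshold of 0.01 lost Gfer, Pam16 and Timm50 (5 higher, 15 lower). The replicate block was fitted on replicates 1 to 4 of either line, so mutator replicate 5 was left out. It gave 7 higher and 17 lower, and added Timm13 to the calls of the fit on all 9 libraries without the block. Libraries of the same number did not deviate together (correlations -0.08, 0.03, -0.03 and 0.00 for replicates 1 to 4). These values cannot show whether wells of the same number were handled together.

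Relative to chromosome medians, Gfer (0.13), Mtx1 (0.14), Mtx2 (-0.30), Pmpca (-0.24), Timm10 (-0.15) and Timm8b (-0.08) changed sign, as did Timm13 (0.10), which passed on neither scale. With the GC and length trend removed, Timm50 (-0.07), Tomm40 (-0.25) and Tomm7 (0.09) did. With both removed, an alternative chosen after seeing the data, 4 were higher and 16 lower, and Gfer (0.15), Mtx2 (-0.17), Pmpca (-0.20), Timm10 (-0.07), Timm50 (-0.04), Tomm40 (-0.22) and Tomm7 (0.07) changed sign; the calls on Pam16, Timm10, Timm23, Timm50, Timm8b, Tomm5 and Tomm7 were lost. The cause was not tested. Among the pair ratios, chromosome medians reversed Mtx1 to Mtx2 (0.44) and Timm8a1 to Timm8b (0.21) and took Timm9 to Timm10 (-0.14), Pmpca to Pmpcb (0.04) and Dnajc15 to Dnajc19 (0.05) below the threshold. With 1 library left out the difference for Tomm40 to Tomm40l was 0.06 to 0.13, and it passed without mutator replicate 1. The other 7 pairs stayed past the threshold with any library left out and with 5 counts added. The GC and length trend was not removed from the ratios.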

Other observations

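Within the mutator line, wells 1 and 4 differed along GC content. The log2 ratio of mutator replicate 4 to replicate 1 was highest for Timm13 (0.47), Tomm40 (0.27), Pam16 (0.20), Timm50 (0.19) and Mtx1 (0.15), whose transcripts have 58.2, 61.5, 57.0, 58.3 and 61.7% GC. It was lowest for Mtx2 and Tomm70a (-0.08 each), with 43.7 and 40.7% GC. Across the 29 import genes the ratio and GC content had Pearson's r = 0.74 and Spearman's rho = 0.74, and across 11105 tested genes r = 0.55 and rho = 0.63. Both are descriptions across genes of the same 2 libraries, and genes are not independent replicates. The log2 fold change between the lines was less tied to GC content (r = 0.26 and rho = 0.37 over the import genes, r = 0.13 and rho = 0.24 over the tested genes). The part of GC content in the calls on Pam16, Timm50 and Timm13 was not tested beyond the alternatives above.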
